A study of Mus musculus with 33 samples.

Results

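Dppa2 and Dppa4 were followed through single oocytes of mice with 2, 1 or no intact copies of Nlrp5. The members are the 2 genes of the count table that carry these symbols, out of 35321 genes in all, and both were found. They were picked by name with the level of Dppa4 in the knockout oocytes already known from these data, so that the values below describe the 33 oocytes, and no test between genotypes was made. The questions were whether heterozygous oocytes lay between the other genotypes and whether the partner genes moved together.

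The 33 libraries each hold the RNA of 1 germinal vesicle oocyte, a prophase-arrested oocyte before meiotic maturation, from 3-week-old C57BL6/Babr females. There were 10 Nlrp5 +/+, 16 Nlrp5 +/- and 7 Nlrp5 -/- oocytes. The allele is a small frameshifting deletion made in zygotes with CRISPR/Cas9 and is carried by every cell of the animal, the follicle cells around the oocyte included. Oocytes of +/- and -/- genotype were from sisters of the same litters, and the +/+ oocytes were, as a rule, from females of the colony behind the line. The labels name no mouse and no litter, and no comparison within litters could be made. The oocytes of a genotype are therefore cells and not replicates, the SDs below are the spread between oocytes, and no p-value is given for a difference between genotypes. Stages are those the study assigned from marker genes of these same libraries, NSN (non-surrounded nucleolus, the earlier chromatin state) and SN (surrounded nucleolus, the later and largely transcriptionally silent one), and neither member is among the 164 stage markers. As read from the study's heatmap, 9 of the +/- oocytes were NSN and 7 were SN. These are more per stage and genotype than the paper's text states, and the difference is unexplained.

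DPPA2 and DPPA4 are small nuclear proteins with a SAP domain, a DNA-binding fold, and they bind each other and chromatin as a heterodimer. They are supplied by the oocyte and are expressed again in the early embryo and in pluripotent cells. In embryonic stem cells they activate Dux, which encodes the transcription factor that turns on genes of the 2-cell embryo such as the Zscan4 cluster, and they keep promoters that carry both activating and repressive histone marks free of DNA methylation. NLRP5 (also MATER or NALP5), the product of the deleted gene, is a core part of the subcortical maternal complex, a protein assembly of the oocyte cytoplasm that the embryo needs to pass the first cleavages.

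The 2 genes are neighbours on the plus strand of chromosome 16. In the coordinates of the deposited table (GRCm38) Dppa4 (ENSMUSG00000058550) spans chr16:48283733-48294237 and Dppa2 (ENSMUSG00000072419) spans chr16:48303908-48319723, with 9670 bp between them. Dppa2 was the more abundant of the pair. Per kb of annotated exon, the mean normalized count in Nlrp5 +/+ oocytes was 291 for Dppa2 and 31.4 for Dppa4, a 9.28-fold difference in level per length. A normalized count is the number of reads on the gene divided by the size factor of the library.

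Libraries held 4223595 to 15573360 counts on genes. Nlrp5 itself (ENSMUSG00000015721, chr7:23385889-23441922) followed the labels. Its normalized counts were 10369 to 29865 in +/+, 5189 to 13812 in +/- and 1396 to 2621 in -/- oocytes, and the -/- range overlapped neither of the others. All 8 oocyte markers tested, among them Gdf9 (an oocyte-secreted growth factor), lay within 2-fold of +/+ in -/- oocytes, where 2.27% of all genes were lower and 8.62% higher. The -/- oocyte 15 stood apart. It was given no stage, its Pearson correlation with the other 6 -/- oocytes, over log2 normalized counts, was 0.72 to 0.87 where those correlated at 0.86 to 0.94 with each other, and 781 of 14483 genes (5.39%) were at least 8-fold above the mean of the other 6. Among these libraries it had the highest summed level of granulosa cell markers, 1127 CPM (counts scaled to the library total) summed over 14 genes, against 235 to 430 in +/+, 282 to 389 in +/- and 262 to 581 in the other -/- oocytes. Of the 13 granulosa markers that passed the filter on low counts, 9 were at least 2-fold higher in -/- than in +/+ oocytes, where 8.62% of all genes were, and without oocyte 15 the number was 5 of 9, where 3.94% of all genes were. The filter takes the mean over both genotypes, so a marker near 0 in +/+ could pass only by being high in -/-. Foxl2, at 0.36 in +/+ and 46.8 in -/-, was among these, and the counts are a description only. In +/- over +/+ 6 of the 14 passed. The defining marker Amh was detected in 1 of 10 +/+, 7 of 16 +/- and 5 of 7 -/- oocytes and Foxl2 in 2, 9 and 4, whereas Cyp19a1, Serpine2 and Kitl of the same list were detected in all 33. Theca and interstitial markers summed to 2.93 to 6.37 CPM in +/+, 6.86 to 312 in +/-, 11.7 to 217 in the other -/- oocytes and 651 in oocyte 15, and 3 of the 3 that passed were at least 2-fold higher in -/- than in +/+ (2 of 3 without oocyte 15). For stroma, vessel and blood markers the sums were 45.9 to 81.1, 57.6 to 96.8, 76.4 to 114 and 260, with 4 of 6 higher with or without oocyte 15. The part of these cells in the results below was not tested. Ratios of the members over all -/- oocytes are given with and without oocyte 15.

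Dppa4 was near the limit of detection in Nlrp5 -/- oocytes. The reads on the gene numbered 0, 2, 0 and 9 in the NSN oocytes 13, 14, 29 and 30, and 5 and 0 in the SN oocytes 7 and 31. Oocyte 15 was the exception with 49 reads. At the mean level of the +/+ oocytes these 7 libraries would have held between 63.5 and 178 reads each. The +/+ oocytes held 70 to 266 reads and the +/- oocytes 26 to 220.

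On the normalized scale the 10 +/+ oocytes ranged from 63.8 to 219 with a median of 116, and their mean was 120 ± 48 (SD). The 7 -/- oocytes ranged from 0 to 42.2 with a median of 1.42 and a mean of 8.09 ± 15.3 (SD), or 2.40 ± 3.23 (SD, n = 6) without oocyte 15. Every -/- oocyte, oocyte 15 included, lay below every +/+ oocyte. Among all 14152 genes tested in this comparison 0.367% had groups separated in this way and direction (0.537% of 13790 without oocyte 15). The log2 ratio of the means was -3.74, and -5.15 without oocyte 15, which is 13.3-fold and 35.6-fold lower. A log2 ratio of -1 or less was found for 2.27% of genes (2.42% without oocyte 15), and Dppa4 ranked 2 from the lowest, with the ratio of Nlrp5 itself at -2.82.

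A library without a read sets a bound only. Taking 3 reads, about the one-sided 95% Poisson limit of a count of 0, as the floor of each library, the mean +/+ level was at least 21.2-fold higher than in oocyte 13, at least 24.8-fold higher than in oocyte 29 and at least 54-fold higher than in oocyte 31. The bound is set by the depth of each library, 4223595, 4898638 and 10621860 counts. Summed over the 6 staged -/- oocytes, 16 reads gave 2.62 normalized counts with an exact 95% Poisson interval of 1.5 to 4.26, against 118 (113 to 124) summed over the +/+ oocytes. The floor of 3 reads and these intervals treat reads as independent, which reads without molecular identifiers need not be. They cover counting error only, and the true bounds may be weaker.

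The lower level was present at both stages. Among NSN oocytes, mean Dppa4 was 90.5 ± 41.6 (SD, n = 4) in +/+ and 1.88 ± 2.89 (SD, n = 4) in -/-, a log2 ratio of -4.99. Among SN oocytes it was 140 ± 43.9 (SD, n = 6) in +/+ and 3.46 ± 4.89 (SD, n = 2) in -/-, a log2 ratio of -4.98. At neither stage did the genotypes overlap, as was the case in this direction for 3.14% of genes at NSN and 7.83% at SN. Genes at least 2-fold lower made up 3.25% of those tested at NSN and 5.99% at SN. The size of each stage ratio rests on few reads, 11 over the NSN and 5 over the SN -/- oocytes. Without oocyte 30 the NSN ratio was -5.96, on 2 reads, and without oocyte 31 the SN ratio was -4.16. Without oocyte 7 no read was left at SN.

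Against +/- oocytes, which came from littermate females, Dppa4 was lower in -/- as well. The log2 ratio was -3.69 over all oocytes (-5.10 without oocyte 15), -5.29 at NSN and -4.79 at SN, where 1.72%, 3.47% and 5.59% of genes were at least 2-fold lower. At NSN no gene tested had a lower ratio among 13902. Within each stage all -/- oocytes lay below all +/- oocytes, which held for 0.683% of genes at NSN and 5.81% at SN. Of the 7 -/- oocytes 6 lay below every +/- oocyte, and oocyte 15 (42.2) lay above 2 of the 16, oocyte 46 (38.9) and oocyte 47 (20.4). Leaving out oocyte 15 separates the groups, as was the case for 0.218% of 13770 genes. Leaving out oocyte 30 brought the NSN ratio to -6.25, and leaving out oocyte 31 brought the SN ratio to -3.96. The 2 comparisons of -/- oocytes share those oocytes.

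**Figure D1:**
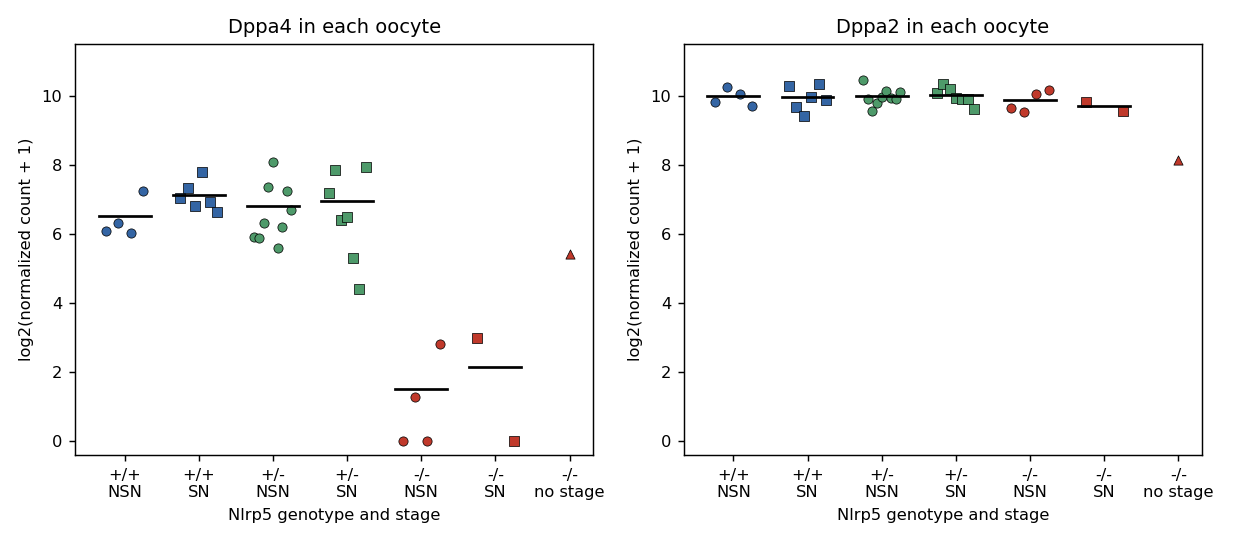
Level of Dppa4 (left) and Dppa2 (right) in each oocyte, as log2(normalized count + 1), by Nlrp5 genotype and stage (circles NSN, squares SN, triangle the unstaged oocyte 15); black bars are the means of the normalized counts on the same scale. Dppa4 lies between 63.8 and 219 normalized counts in +/+ oocytes and at 0 to 6.92 in the 6 staged -/- oocytes, while Dppa2 lies in 1 band in all staged oocytes.

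The +/- oocytes did not sit midway for Dppa4. They ranged from 20.4 to 269 with a median of 85.8 and a mean of 116 ± 77.3 (SD, n = 16), next to 120 in +/+. Of the 16, 8 lay within the +/+ range, 5 below it and 3 above it. The log2 ratio of +/- over +/+ was -0.05 over all oocytes, 0.30 at NSN and -0.20 at SN. Of all genes 0.293% were at least 2-fold lower and 0.746% at least 2-fold higher in +/-, and Dppa4 was in neither set. The sign of the first of these was not stable, as leaving out single oocytes gave values from -0.18 to 0.09. The ratio of the medians was -0.44. By the means, +/- lay between the other genotypes over all oocytes and at SN but not at NSN, where it was above +/+ (111 ± 71.7, n = 9, against 90.5). A mean between the others was found for 48.9% of all genes, 36.8% at NSN and 44.8% at SN. For Nlrp5, whose transcript is the target, 13 of 16 +/- oocytes were below every +/+ oocyte.

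The SD of Dppa4 between oocytes was 66.6% of the mean in +/- and 39.9% in +/+, and that of Dppa2 was 16.5% and 20.5%. The Dppa4 values differed by the index of the library. Each library carries a first index sequence that its group of oocytes shares, 10 in all, and none of the 10 occurs in more than 1 genotype. The labels do not say whether an index marks a mouse, a plate or a preparation. In +/-, mean Dppa4 was 44.2 for oocytes 45 to 48, 93.3 for oocytes 61 to 64, 137 for oocytes 37 to 40 and 189 for oocytes 53 to 56. The 4 oocytes of the lowest index held 58.3 and 59.4 at NSN and 20.4 and 38.9 at SN, and of the other 12 +/- oocytes only oocyte 61 (47.2) was as low as the higher of these.

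In +/+ the 3 index means were 118 to 124. Among the +/- libraries the lowest index was also the deepest, with 7843554 to 11148793 counts against 5039115 to 7724335 in the other 12. Spearman's correlation of Dppa4 with the total count was -0.49 over the 16 oocytes. Depth and index cannot be told apart here. Leaving out these 4 oocytes, an alternative chosen after seeing the data, moved the +/- over +/+ log2 ratio to 0.22. Within -/-, the index means were 14.5 for oocytes 13 to 15 (0.71 without oocyte 15, then the lowest of the 3), 6.92 for oocyte 7 and 2.03 for oocytes 29 to 31, each below every +/+ and +/- index mean. No index holds 2 genotypes, so that genotypes could not be compared within an index.

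**Figure D2:**
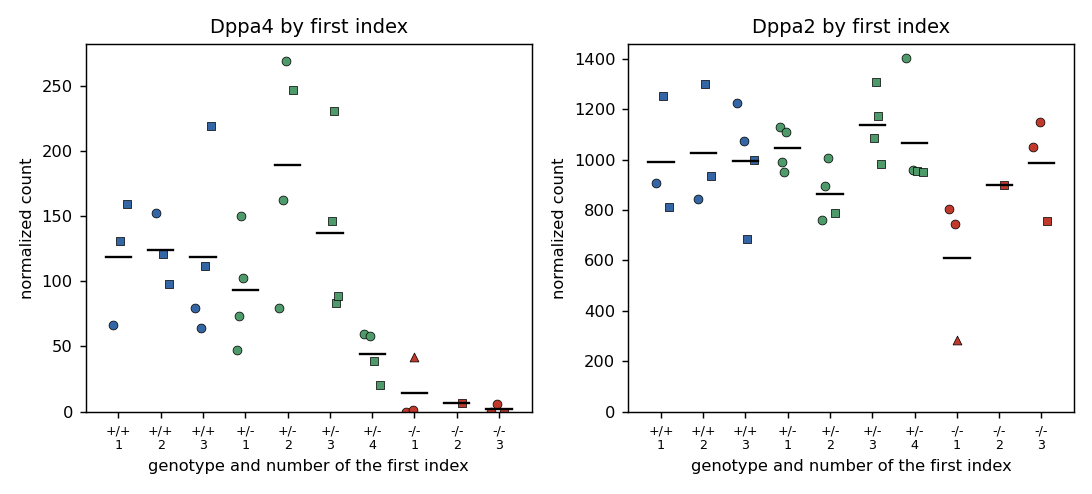
Normalized counts of Dppa4 (left) and Dppa2 (right) in each oocyte, grouped by genotype and by the first index sequence of the library, numbered within genotype (circles NSN, squares SN, triangle unstaged); black bars are means. Dppa4 index means run from 44.2 to 189 in +/- and from 118 to 124 in +/+, and from 2.03 to 14.5 in -/-, where the 14.5 falls to 0.71 without oocyte 15.

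Dppa2 stayed close to its +/+ level in all staged oocytes. It ranged from 685 to 1299 normalized counts in +/+ (mean 1003 ± 206, SD, n = 10), from 758 to 1403 in +/- (1028 ± 170, n = 16) and from 283 to 1150 in -/- (813 ± 279, n = 7). The lowest of all 33 values was that of oocyte 15. Without it the -/- oocytes ran from 744 to 1150 with a mean of 901 ± 167 (SD, n = 6), inside the +/+ range. The log2 ratio of -/- over +/+ was -0.30, or -0.15 without oocyte 15, and was -0.11 at NSN and -0.27 at SN. Of all genes 21.9% had a lower ratio over all oocytes. The +/- over +/+ ratio was 0.04, and the +/- mean was above both other genotypes over all oocytes and at each stage. Against +/-, -/- gave -0.34 over all oocytes (-0.19 without oocyte 15), -0.13 at NSN and -0.32 at SN. None of these differences reached 2-fold.

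The share of Dppa4 in the reads of the pair needs no scaling between libraries. Dppa4 made up 5.62% to 18.0% of the reads on the 2 genes in +/+ oocytes and 2.10% to 23.9% in +/- oocytes. In the 6 staged -/- oocytes it made up 0% to 0.762%, with 0.290% over their summed reads (exact 95% binomial interval 0.166% to 0.471%), against 10.2% (9.71% to 10.7%) in +/+ and 9.23% (8.79% to 9.68%) in +/-. The 3 oocytes with no Dppa4 read had 0 of 425, 0 of 650 and 0 of 1018 reads of the pair, and 3 reads, about the one-sided 95% limit of a count of 0, would make shares of 0.706%, 0.462% and 0.295%. The two-sided 95% intervals drawn in the plot of shares end higher, at 0.864%, 0.566% and 0.362%. The staged -/- oocytes thus had a lower share than any +/+ or +/- oocyte. Oocyte 15, at 13% (9.77% to 16.8%), had a share inside the +/+ range, since its Dppa2 was low as well. Its granulosa marker sum was 1127 CPM, that of oocyte 14 was 581 with a Dppa4 of 1.42, and the part of these cells in the Dppa4 reads of oocyte 15 was not tested.

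**Figure D3:**
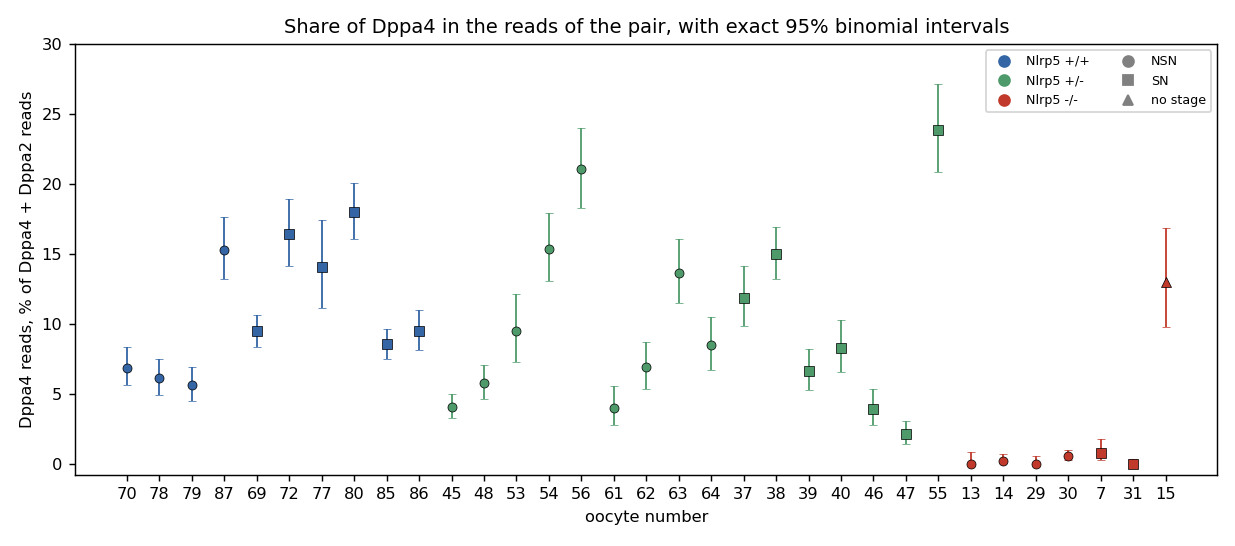
Share of Dppa4 in the reads on Dppa4 and Dppa2 together (%), for each oocyte with its exact 95% binomial interval, which covers counting error only; colours mark the genotype and symbols the stage. The 6 staged -/- oocytes lie at 0% to 0.762%, below the lowest +/- oocyte (2.10%), and oocyte 15 lies at 13%.

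Within a genotype no common rise and fall of the partner genes was seen from oocyte to oocyte. Spearman's correlation between Dppa2 and Dppa4 was -0.16 over the 10 +/+ oocytes, -0.02 over the 16 +/- oocytes and -0.22 over the 7 -/- oocytes (0.27 without oocyte 15). These are descriptions over cells that share indices and differ in depth. Dppa2 followed the total count among +/+ oocytes (Spearman's 0.76), whereas Dppa4 did not (-0.10). Among the 13629 genes tested in +/+ oocytes, 38.6% had a lower correlation with Dppa4 than Dppa2 had, and in +/- oocytes 44.2% of 13668 did. The lowest +/- index for Dppa4 had a mean Dppa2 of 1067, and the highest for Dppa4 had the lowest Dppa2, 862. By stage alone the correlations ran from -0.40 to 0.32 and took both signs.

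**Figure D4:**
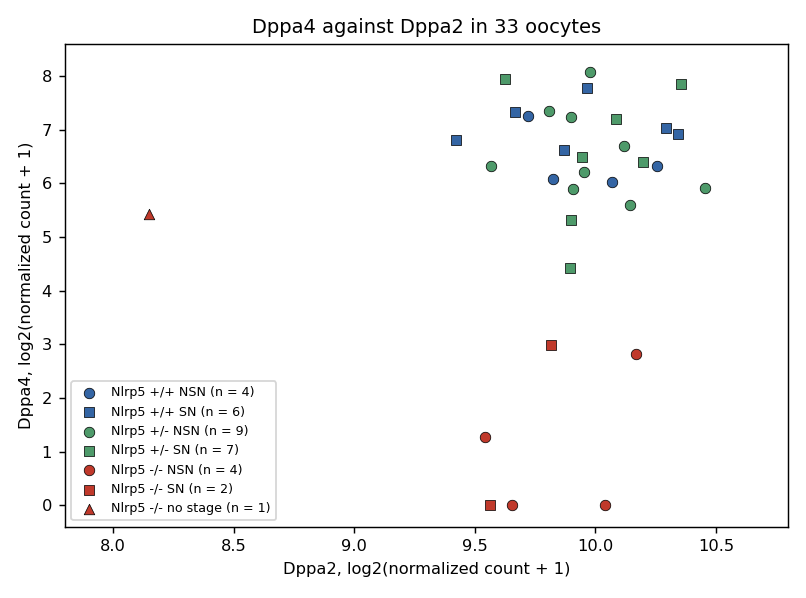
Dppa4 against Dppa2 in the 33 oocytes, both as log2(normalized count + 1), coloured by genotype and marked by stage. The staged -/- oocytes are shifted down the Dppa4 axis within the Dppa2 range of the other genotypes, and oocyte 15 is the single point at low Dppa2.

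The change from NSN to SN was modest for both genes. In +/+, Dppa4 was 66.8, 79.3, 63.8 and 152 in the NSN oocytes 70, 78, 79 and 87, and 98.0 to 219 with a median of 126 in the 6 SN oocytes, a log2 ratio of 0.62. Oocyte 87, at 152, lay among the SN values, so the stages overlapped. At least 2-fold higher levels at SN were found for 4.02% of genes in +/+, and 90.5% of genes had a lower ratio than Dppa4. In +/- the ratio was 0.13 and took the other sign when oocyte 61 was counted as SN (-0.08). Stage and index are mixed in +/-, where oocytes 61 to 64 were all NSN and oocytes 37 to 40 all SN. In -/- it was 0.63 by the means and -0.13 by summed reads, 11 at NSN and 5 at SN, too few for a direction. For Dppa2 the ratios of SN over NSN were -0.02 in +/+, 0.02 in +/- and -0.18 in -/-.

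**Figure D5:**
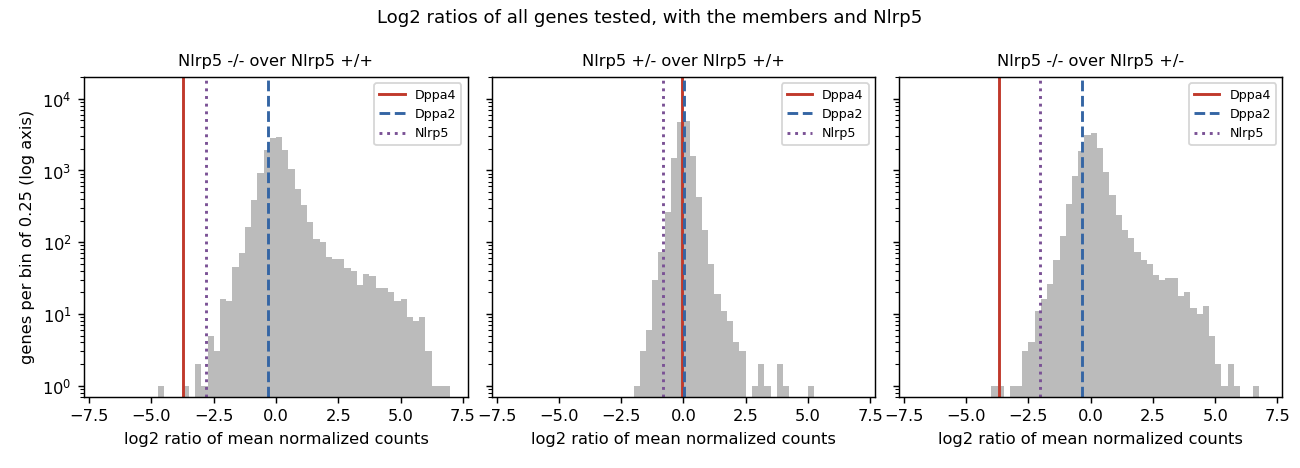
Number of genes (log axis) by log2 ratio of the mean normalized counts in bins of 0.25, for -/- over +/+ (left), +/- over +/+ (middle) and -/- over +/- (right), with vertical lines at Dppa4 (solid), Dppa2 (dashed) and Nlrp5 (dotted). Dppa4 lies at -3.74 and -3.69 in the comparisons of -/- oocytes, below all but 1 gene in each, and at -0.05 in +/- over +/+.

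Of 5 other genes within 500 kb, 3 had no read in any oocyte and 1 more, Gm5485, had 23 reads in all. Morc1, which encodes a germ cell protein of transposon silencing and lies downstream of Dppa2 (chr16:48431237-48630900), was the only one to pass the filter. Its mean was 180 in +/+, 168 in +/- and 137 in -/- oocytes, a log2 ratio of -0.40 for -/- over +/+.

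Genes with the pattern most like Dppa4 were taken as the 5 with the highest Spearman's correlation. Over the 33 oocytes these were Rpf1 (0.80, a ribosome biogenesis factor), Mfap1b (0.79), 2210417A02Rik (0.79), Nsrp1 (0.77, a splicing regulator) and A930006K02Rik (0.77). All 3 genotypes enter this measure, and it therefore contains the low -/- level. Rpf1 had means of 559, 506 and 248 in +/+, +/- and -/-, 2210417A02Rik had 34.9, 35.4 and 6.74, and Nsrp1 had 850, 756 and 606. Each of these had every -/- oocyte below every +/+ oocyte, as 0.367% of all genes had, though with smaller ratios than Dppa4. For Nsrp1 the margin was small, with a highest -/- value of 650.1 and a lowest +/+ value of 650.5. Over the 16 +/- oocytes alone the 5 were Mfap1b (0.89), Eapp (0.83), Snapc5 (0.81, a subunit of the complex that binds the promoters of small nuclear RNA genes), Xlr5c (0.79) and A930006K02Rik (0.79). Reads of Mfap1b and Xlr5c may be shared with near-identical gene copies, and their values are uncertain to that extent.

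The genes most like Dppa2 over the 33 oocytes were Fnta (0.71, the alpha subunit of farnesyltransferase), Rsl24d1 (0.70), Immt (0.69, a component of mitochondrial cristae junctions), Gm14091 (0.69) and Knstrn (0.67, a kinetochore protein). Oocyte 15 held the lowest -/- value of Immt, Gm14091 and Knstrn as it did of Dppa2. Over the +/- oocytes they were Slc43a3 (0.82), Tax1bp3 (0.81), Prr13 (0.80), Shisa5 (0.80) and Gm14091 (0.79). No gene was on both the Dppa4 and the Dppa2 list.

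Genes whose proteins bind or modify DPPA2 and DPPA4, or the histone complexes they are known to recruit, were measured with all 10 present. None was at least 2-fold lower in -/- than in +/+ oocytes and 1 was at least 2-fold higher, where 2.27% of all genes were lower and 8.62% higher. The median log2 ratio of the 10 was -0.23, against 0.05 over all genes. Ezh2, the methyltransferase subunit of Polycomb repressive complex 2, was the most abundant, at 3821 in +/+, 3751 in +/- and 2822 in -/- (log2 ratio -0.44 for -/- over +/+). The higher gene was Kmt2a, a histone H3 lysine methyltransferase, at a low level of 2.47, 6.21 and 29.8, with 131 in oocyte 15 and a log2 ratio of 3.15 with and 2.01 without that oocyte. Without it Kmt2a failed the filter and 0 of 9 genes were at least 2-fold different, where 2.42% of all genes were lower and 3.94% higher. Kmt2a was also the 1 gene of 10 at least 2-fold higher in -/- than in +/+ at NSN, at 17.7 against 3.48, where 5.03% of all genes were, and the 1 of 10 higher in -/- than in +/- over all oocytes (log2 ratio 2.09, where 6.39% were). Without oocyte 15 the latter ratio was 0.95, under 2-fold, and Kmt2a failed the filter there too. In each of these comparisons, NSN included, Kmt2a was under the filter's mean of 10 in the other genotype. It passed only through its -/- level, so these counts are a description only. In -/- against +/+ 0 of 9 genes were at least 2-fold different at SN, where 5.99% of all genes were lower and 4.1% higher.

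Targets of the heterodimer and other genes of the 2-cell embryo were mostly at low counts. Many belong to families of similar copies, such as the Zscan4 cluster, and how reads were counted is not known. Where reads could not be placed on 1 copy, a low count need not mean low expression. Of 24 listed genes 22 were in the table, 3 of them without a read, and 6 passed the filter. Over all oocytes none of these 6 was at least 2-fold different in -/- against +/+ (median log2 ratio 0.18), with or without oocyte 15, and at NSN none was. The shares of all genes were 2.27% lower and 8.62% higher over all oocytes (2.42% and 3.94% without oocyte 15), and 3.25% and 5.03% at NSN. With so few genes a count of 0 is near these shares. At SN 2 of the 6 were at least 2-fold higher, where 4.1% of all genes were. These were Zscan5b, at 47.7 in the 2 -/- and 15.2 in the 6 +/+ oocytes (log2 ratio 1.59), and Tmem92, at 26.5 and 9.76 (log2 ratio 1.36). Sp110, the most abundant, had means of 4037, 4545 and 3136 in +/+, +/- and -/-. The gene listed as Duxf3, Dux of the mouse, had 24 reads over 6 oocytes, 3 of them +/+ and 3 -/-. In -/- over +/-, where 6.39% of all genes were at least 2-fold higher, the number was 1 of 6, Tmem92 (21.5 in -/- and 8.85 in +/-, log2 ratio 1.19). At SN it was 1 of 6, Zscan5b (47.7 and 20.3, log2 ratio 1.20), against 3.4% of all genes. Both genes were chosen for mention after their values were seen. Tmem92 was under the filter's mean of 10 in the other genotype each time and passed only through its -/- level.

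Maternal regulators of zygotic genome activation that passed the filter lay within 2-fold of +/+ over all oocytes and at each stage. Of 20 genes 18 passed, 0 were at least 2-fold lower and 0 higher in -/- against +/+, with or without oocyte 15, and the median log2 ratio was -0.05. The shares of all genes were 2.27% lower and 8.62% higher (2.42% and 3.94% without oocyte 15), 3.25% and 5.03% at NSN, and 5.99% and 4.1% at SN. Dppa3 (Stella, a maternal protein that guards methylation of the zygote) had the highest mean over the 33 oocytes, with 16104 in +/+, 15838 in +/- and 11332 in -/- oocytes, a log2 ratio of -0.51. Of a list of early embryo and pluripotency genes, which also holds Dppa3, 8 passed in -/- against +/+ over all oocytes, where 0 were at least 2-fold lower and 0 higher, with or without oocyte 15 and with a median of -0.03. Of all genes 2.27% were lower and 8.62% higher in this comparison. At NSN 1 of 9 was at least 2-fold lower (3.25% of all genes), with a median of -0.30. This was Zfp42 (Rex1, a marker of pluripotent cells), at 9.10 in -/- and 22.4 in +/+ (log2 ratio -1.22), which was chosen for mention after its values were seen. Zfp42 was also the 1 gene of 9 at least 2-fold lower in -/- than in +/-, at 5.90 against 23.6 over all oocytes (log2 ratio -1.84, where 1.72% of all genes were lower) and at 9.10 against 38.6 at NSN (log2 ratio -1.97, where 3.47% were). In +/- over +/+ it was the 1 of 9 that was at least 2-fold higher (log2 ratio 1.06), where 0.746% of all genes were. In the same list Dppa1 and Dppa5a had log2 ratios of -0.53 and -0.58 for -/- over +/+ and were chosen for mention by their name, with their values already seen.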

How the data were processed

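The authors prepared single-oocyte RNA libraries by a protocol that captures RNA and DNA of the same cell, without molecular identifiers, and deposited a table of read counts per gene. The submitters' processing notes name Trim Galore, HISAT2 and GRCm38. The methods name a later build, while the table's coordinates and library names are of GRCm38. Tool versions and the counting step are not given in the sources used here. Libraries with few reads had been removed by the authors. A second deposited table gives read totals per library, 4023242 to 13405901 read counts, used only as an alternative scaling. In 31 of 33 libraries the counts on genes exceeded this total (ratio 0.917 to 1.23), so a count is not always 1 independent read. Deposited tables of the authors' own fold changes and p-values for called genes were not used.

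From 35373 rows, 52 that repeat a gene symbol were left out. Size factors were medians of ratios over all 33 oocytes (numpy 2.4.6, pandas 2.3.3, scipy 1.17.1). Log2 ratios compare mean normalized counts with a pseudocount of 1, among genes with a mean of at least 10 in the oocytes compared, and 2-fold was the threshold. On simulated counts for 14152 genes in the -/- against +/+ comparison the sign of all 200 changed genes was recovered. The changes made were all well beyond 2-fold, and the simulated counts held no index, mouse or other-cell structure. The simulation therefore checks the arithmetic only and not calls near the threshold. Genotypes came from the labels, and stages from the study's staging heatmap, with oocyte 15 unstaged. Exon lengths are unions of GENCODE M39 exons (GRCm39), used as lengths only. Named besides the members and Nlrp5 were genes within 500 kb that passed the filter, the 5 most correlated genes, and from each list the members at least 2-fold different between -/- and +/+ (at most 4) with the one of highest mean; markers of other cell types are given mainly as counts and sums. Outside this rule Gm5485, Duxf3, Dppa1, Dppa5a, Zscan5b, Tmem92, Zfp42, Amh, Foxl2, Cyp19a1 and Kitl were named after their values were seen. The members and all lists were chosen with earlier results of these data known. No 2 libraries were identical. Alternatives were other scalings, medians, summed reads, a pseudocount of 5, other filters, oocyte 61 counted as SN, and leaving out each oocyte.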

Additional observations from a re-analysis of the deposited data

Results flagged for a closer look

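Oocyte 15 was far from the other Nlrp5 -/- oocytes for Dppa4. Its normalized count was 42.2, the next highest of the 7 was 6.92, and the gap was 0.836 of the whole range, above Dixon's 95% critical value for 7 values. Of 14 groups of oocytes examined for the 2 genes 1 had such a value. Chance flags about 1 in 20 groups. The groups overlap, 3 of the 7 values are 0 and the oocytes are cells rather than replicates, so the comparison with the critical value is a description only. The same oocyte had no stage, the lowest Dppa2 of all 33 oocytes (283), the highest granulosa marker sum (1127 CPM) and an oocyte marker sum of 15565 CPM, against 23048 to 26864 in the other 6. Its Nlrp5 level, 1413, was inside the -/- range. The part of other cells in its Dppa4 reads was not tested.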

How the results depend on the processing

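The 6 log2 ratios of Dppa4 between -/- and the other genotypes stayed negative and beyond 2-fold in all 123 alternatives run for them, with values from -6.25 to -3.21. The 18 other ratios, all under 2-fold, changed sign in 35 of 386 alternatives, and the 3 values that reached 2-fold were of SN over NSN within -/-, which rests on 16 reads. Leaving out oocyte 7 left no Dppa4 read in the SN -/- oocytes and gave no value. The 4 deepest +/- oocytes were left out as an alternative chosen after seeing the data. Spearman's correlation between the members in +/+ was -0.40 over NSN and 0.20 over SN oocytes alone, in +/- it was -0.40 over NSN oocytes, and in -/- it was 0.32 over NSN oocytes and -0.63 by Pearson's r, with a range of -0.52 to 0.27 when single oocytes were left out. The share of genes at least 2-fold lower in -/- than in +/+ was 4.12% with no filter and 0.853% at a mean of at least 100, and the share with every -/- value below +/+ was 0.2% with no filter. No paired analysis was possible because the replicate numbers only follow the order of the samples, the labels name no mouse and no test between groups was made. Depth limits what can be said of Dppa4 to bounds in the 3 -/- oocytes without a read, and with cells of unknown mice the spread between animals is unknown.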
